A study of Homo sapiens with 6 samples.

Results

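Sézary syndrome is the leukaemic form of cutaneous T-cell lymphoma (CTCL), a cancer of mature, skin-homing CD4+ T cells. The 10 genes described here are those by which Sézary and CTCL cells are commonly told from normal T cells, namely TOX, PLS3, KIR3DL2, TWIST1, CADM1, DNM3, EPHA4, SATB1, DPP4 and CDO1. They were chosen by name, and each had 1 row among the 61541 genes of the counts table. In patients' cells, TOX, PLS3, KIR3DL2, TWIST1, CADM1, DNM3, EPHA4 and CDO1 are as a rule raised or switched on, whereas SATB1 is lowered and DPP4 (CD26) is lost from the cell surface. They do not form a pathway. They encode a nuclear factor of T-cell development, an actin-bundling protein, cell-surface receptors and adhesion molecules, a membrane-fission enzyme and metabolic enzymes, and many of them are silent in resting lymphocytes.

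Their transcripts were measured by bulk RNA-seq in H9 cells treated with vehicle (DMSO, 3 libraries) or with AZD4573 (50 nM, 3 libraries, 4 h by the labels, which give no time for DMSO). AZD4573 inhibits CDK9, the kinase that releases paused RNA polymerase II into elongation. H9 is a clone of HUT 78, a line grown from the blood of a patient with Sézary syndrome. The labels class all 6 libraries as T cell lymphoma cells of WT genotype. A single clone stands for the disease here, and no label tells whether the libraries of a group came from separate cultures, so that p-values measure the spread between these libraries only. Since the samples are bulk RNA, fewer cells with a transcript and less of it per cell cannot be told apart.

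Total counts were 70367303 to 76571157 per library with DMSO and 52101868 to 63795185 with AZD4573. Levels are given as CPM, counts scaled to the library total. A count of 0 allows up to 0.0392 to 0.0426 CPM in a DMSO library and up to 0.0470 to 0.0576 CPM in an AZD4573 library, taken as 3 counts of the total. These limits cover counting error only. Of the markers of T cells, TRBC1 (273 CPM with DMSO), CD247 (222 CPM), CD3E (160 CPM) and CD5 (151 CPM) were abundant, but CD2 was near absent at 0.109 CPM and CD8B and TRDC were at 0 in each library. Of the markers of other cells, the 6 myeloid ones summed to 0.274 to 0.512 CPM with DMSO and 1.10 to 2.03 CPM with AZD4573. CD79A, a B-cell receptor component, was at 59.9 CPM with DMSO and 90.2 CPM with AZD4573. CD79B, another B-cell marker, went the other way (log2 fold change -0.71, adjusted p = 4.34e-05 from edgeR). The part of these markers in the results was not tested.

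Which of the 10 genes were expressed in H9 cells with DMSO was examined first. TOX, DPP4, PLS3 and CADM1 reached 1 CPM (4 genes), and of these TOX, DPP4 and PLS3 also reached 10 CPM. KIR3DL2, SATB1, DNM3 and TWIST1 lay between 0.263 and 0.857 CPM, each with counts in all 3 DMSO libraries. EPHA4 had 3 counts in a single DMSO library and none elsewhere, and CDO1 had none with DMSO. Both were removed by the filter on low counts, so that 8 of the 10 genes were tested among 17678 genes.

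Levels of different genes were compared per kilobase of exons (CPM per kb). With DMSO, TOX stood highest at 31.1 ± 0.536 CPM per kb (SD, n = 3), above 91.4% of the genes tested. PLS3 followed at 9.63 ± 0.317 CPM per kb (SD, n = 3), DPP4 at 4.67 ± 0.133 (SD, n = 3) and KIR3DL2 at 0.456 ± 0.0216 (SD, n = 3), and the ranges of these 4 genes over the DMSO libraries did not overlap. CADM1 (0.127 to 0.144 CPM per kb) and TWIST1 (0.0994 to 0.178) overlapped and are not ordered. SATB1 (0.0192 to 0.0355) and DNM3 (0.0155 to 0.0336) overlapped as well, below the former pair. EPHA4 and CDO1 were last, within the limit that a count of 0 allows. With the length of the longest transcript in place of all exons, the order of the 10 genes was the same.

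**Figure D1:**
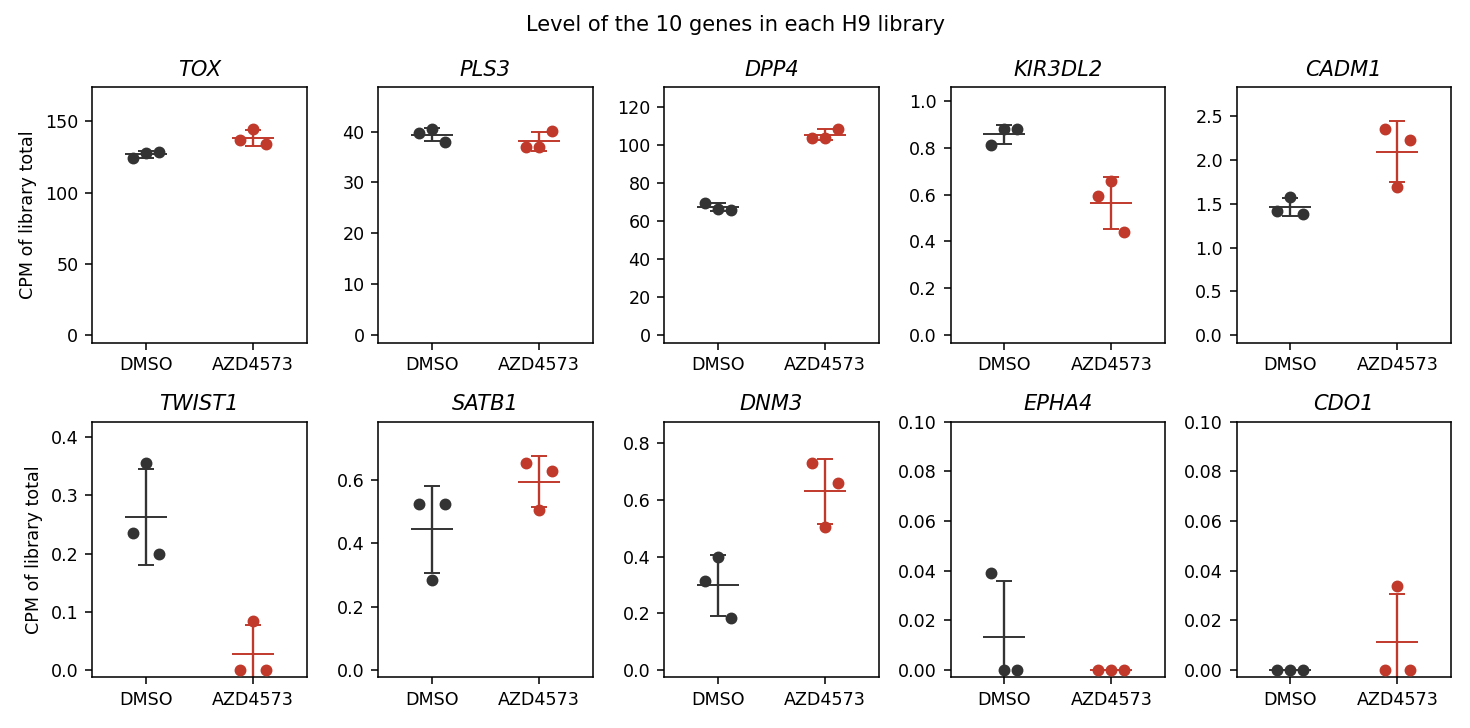
CPM of the library total for each of the 10 genes in the 3 DMSO libraries (black) and the 3 AZD4573 libraries (red), ordered by level per kilobase with DMSO. Points are libraries, horizontal lines are means and error bars are SD, each panel has its own axis from 0, and the SD bars of genes with libraries at 0 are cut at the axis. The DPP4 libraries sit between 66.0 and 69.6 CPM with DMSO and between 104 and 109 CPM with AZD4573.

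How each gene changed upon AZD4573 treatment was tested with edgeR's quasi-likelihood test across all 17678 genes, with TMM scaling and Benjamini-Hochberg adjustment. At an adjusted p under 0.05, DPP4, TOX, CADM1 and DNM3 were higher, TWIST1 was lower, and PLS3, KIR3DL2 and SATB1 did not pass. Calls were common in these data, since 37.3% of all genes tested were higher and 37.4% were lower by the same rule. The 4 higher of 8 and 1 lower of 8 genes are to be read against those shares. With a fold of at least 1.5 in addition, CADM1, DPP4 and DNM3 were higher (22.7% of all genes tested) and TWIST1 was lower (23.7%). The median log2 fold change of the 8 genes was 0.38, against 0.03 for all genes tested.

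These directions depended on how the libraries were scaled. The 13 mRNAs of the mitochondrial genome, which RNA polymerase II does not transcribe, took 3.04 to 3.22% of the counts with DMSO and 4.67 to 4.98% with AZD4573. When these mRNAs set the scale, the median log2 fold change of all genes tested moved by -0.74 to -0.71, none of the 8 genes was higher and 4 were lower (TOX, PLS3, KIR3DL2 and TWIST1). By that scaling 12.1% of all genes tested were higher and 67.2% were lower. Without any factor beyond library size it moved by -0.10. Measured from the median over the tested genes, each gene's log2 change was nearly the same under these scalings. Examples are 0.72 for DPP4 and 0.21 for TOX with both TMM and mitochondrial scaling. A scaling shifts all genes by nearly the same amount, so this sameness follows from the arithmetic and does not tell which scaling holds. The changes below are those with TMM. The mitochondrial scaling is given beside them for each of the 8 genes, and for the lists as counts and for some genes only.

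**Figure D2:**
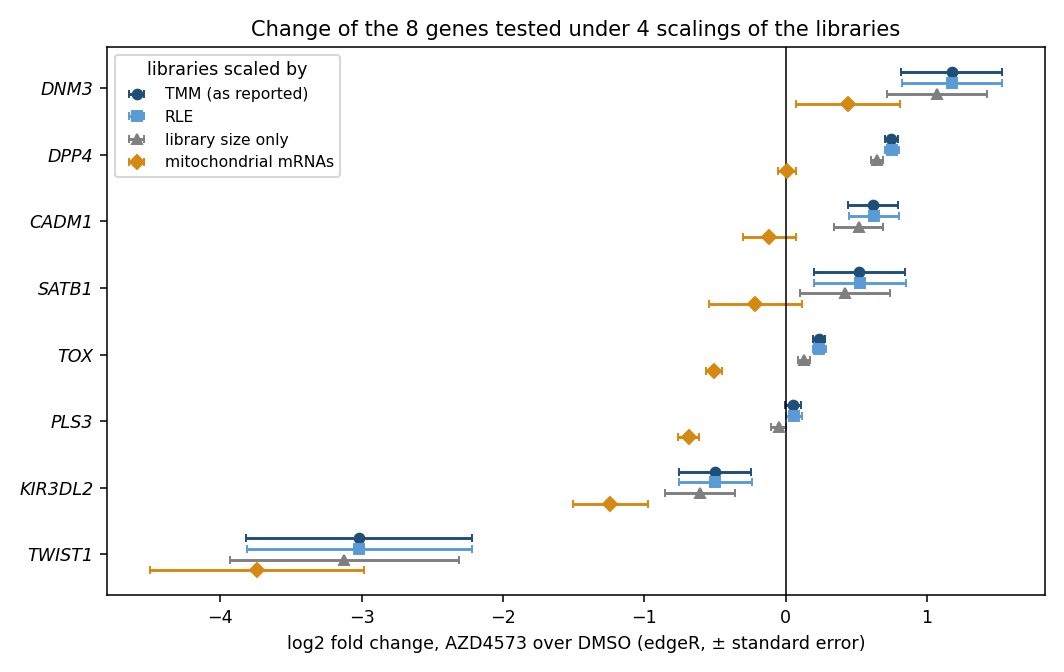
Log2 fold change of AZD4573 over DMSO (x axis) for the 8 genes tested, with the libraries scaled in 4 ways. Symbols are edgeR estimates and bars are standard errors. DNM3, DPP4, KIR3DL2 and TWIST1 lie on the same side of 0 under each scaling, although DPP4 falls to 0.01 when scaled to the mitochondrial mRNAs, and TOX goes from 0.23 to -0.51.

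The promoters of 2 of the genes that rose, DPP4 and DNM3, are shown with that of KIR3DL2, a gene that did not pass the test, as examples of a CpG-rich and a CpG-poorer start. They were picked after their letters were seen. The windows are RefSeq sequences on GRCh38.p14 from 250 bases before to 50 bases after an annotated start, read on the strand of the gene. DPP4 is at chr2:162074166-162074465 on the minus strand, DNM3 at chr1:171841248-171841547 and KIR3DL2 at chr19:54850193-54850492, both on the plus strand. Capitals mark the GC box (GGGCGG) on either strand.
DPP4: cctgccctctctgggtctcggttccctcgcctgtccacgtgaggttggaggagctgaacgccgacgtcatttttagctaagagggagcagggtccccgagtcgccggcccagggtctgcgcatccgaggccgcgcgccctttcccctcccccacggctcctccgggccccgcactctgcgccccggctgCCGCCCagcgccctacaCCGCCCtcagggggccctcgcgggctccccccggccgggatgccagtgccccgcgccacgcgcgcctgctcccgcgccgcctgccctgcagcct
DNM3: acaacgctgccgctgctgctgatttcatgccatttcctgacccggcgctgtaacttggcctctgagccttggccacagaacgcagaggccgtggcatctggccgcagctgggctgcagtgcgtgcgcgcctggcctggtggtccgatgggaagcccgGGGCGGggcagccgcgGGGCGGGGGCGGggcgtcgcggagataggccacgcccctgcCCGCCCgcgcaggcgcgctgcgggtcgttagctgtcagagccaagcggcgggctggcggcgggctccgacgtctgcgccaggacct
KIR3DL2: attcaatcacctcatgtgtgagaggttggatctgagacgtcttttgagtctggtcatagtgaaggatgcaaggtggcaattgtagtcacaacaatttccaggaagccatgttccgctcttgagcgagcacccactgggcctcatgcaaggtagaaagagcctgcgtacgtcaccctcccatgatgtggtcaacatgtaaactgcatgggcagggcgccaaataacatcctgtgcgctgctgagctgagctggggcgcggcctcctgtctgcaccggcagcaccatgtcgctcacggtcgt
The windows of DPP4 and DNM3 held 34 and 35 CpG dinucleotides, and that of KIR3DL2 held 13, against a median of 14 over 35116 windows of the table. GC boxes, found in 45.0% of all windows, were found at 2 places for DPP4 and 4 for DNM3 and none was found for KIR3DL2. CpG-rich windows were not limited to genes that rose. SATB1, which did not pass, has a window with 33 CpG and 3 GC boxes among its 4. EPHA4, which was removed by the filter and has no call, has 1 with 33 CpG and 5 GC boxes. A relation of base composition to the calls was not tested. The TATA box (TATAAA, in 11.5% of all windows), the CCAAT box (CCAAT, in 34.6%) and the motif AGATAA, which GATA factors bind (10.3%), were searched on both strands and found in none of these 3 windows. These matches describe the letters of the windows and no binding was measured here.

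DPP4 encodes CD26, a membrane peptidase that trims chemokines and costimulates T cells, and whose absence from the surface is used to count Sézary cells in blood. The gene (ENSG00000197635) lies on chromosome 2 of GRCh38 from 161992245 to 162074394. H9 cells did express it, at 69.6, 66.6 and 66.0 CPM in the DMSO libraries and 104, 104 and 109 CPM in the AZD4573 libraries. All AZD4573 libraries lay above all DMSO libraries, as they did for 39.0% of all genes tested in that direction on the TMM scale. This was a 1.68-fold rise, or 0.75 on the log2 scale (95% interval 0.65 to 0.85, standard error 0.0478), with an adjusted p of 8.59e-09 from edgeR. Scaled to the mitochondrial mRNAs it was 0.01 (adjusted p = 0.907 from edgeR). Exons of DPP4-DT, a divergent noncoding gene with at most 16 counts in a library, share 1.21% of the exon bases of DPP4.

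KIR3DL2 encodes CD158k, an inhibitory killer cell immunoglobulin-like receptor of NK cells and some T cells that Sézary cells display. The gene (ENSG00000240403) lies on chromosome 19 from 54850443 to 54867207. It had 62 counts in each of the 3 DMSO libraries (0.810, 0.881 and 0.879 CPM), and 31, 39 and 28 counts with AZD4573 (0.595, 0.656 and 0.439 CPM). All AZD4573 libraries were below all DMSO libraries, which held for 38.7% of all genes tested on the TMM scale. Its log2 fold change of -0.50 (standard error 0.255, 95% interval -1.05 to 0.05) did not pass the test (adjusted p = 0.0906 from edgeR). It passed with library size alone (-0.61, adjusted p = 0.0440 from edgeR) and scaled to the mitochondrial mRNAs (-1.24, adjusted p = 0.000403 from edgeR). KIR genes are near-identical copies that can share reads, and none of the 6 other KIR genes examined had more than 3 counts in a library.

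CADM1 encodes an immunoglobulin-like adhesion molecule that binds CRTAM on activated lymphocytes. The gene (ENSG00000182985) lies on chromosome 11 from 115169218 to 115504957. It was at 1.42, 1.58 and 1.39 CPM with DMSO and at 2.36, 1.70 and 2.23 CPM with AZD4573. The groups did not overlap, although AZD4573 replicate 2 came close to the highest DMSO library. CADM1 rose 1.54-fold, or by 0.62 on the log2 scale (standard error 0.175), with an adjusted p of 0.00582 from edgeR, a value that turned to -0.12 (adjusted p = 0.578 from edgeR) when scaled to the mitochondrial mRNAs.

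EPHA4 encodes a receptor tyrosine kinase for ephrins, the membrane-bound ligands of neighbouring cells. The gene (ENSG00000116106, chromosome 2, 221418027 to 221574202) had 3 counts in DMSO replicate 1 and 0 counts in the other 5 libraries. H9 cells thus did not show a level that this depth can tell from 0, and no fold is given.

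TOX encodes an HMG-box factor of thymic T-cell development and T-cell exhaustion. The gene (ENSG00000198846) lies on chromosome 8 from 58805412 to 59119147. It was at 124, 128 and 128 CPM with DMSO and at 137, 145 and 134 CPM with AZD4573. The groups did not overlap, but the log2 fold change was small at 0.23 (standard error 0.0436, 95% interval 0.14 to 0.33, adjusted p = 0.000271 from edgeR), a 1.18-fold rise. It was lower, at -0.51 (adjusted p = 4.11e-07 from edgeR), with mitochondrial scaling. TOX-DT, a noncoding gene that starts 107 bases away on the opposite strand and shares 2.65% of the exon bases of TOX, was at 9.04 CPM with DMSO and 8.74 CPM with AZD4573 and did not pass the test (log2 fold change 0.05, adjusted p = 0.551 from edgeR).

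SATB1 encodes a chromatin organiser of thymocytes that also sets cytokine loci of T helper cells. The gene (ENSG00000182568) lies on chromosome 3 from 18345377 to 18445621. It was at 0.522, 0.284 and 0.524 CPM with DMSO and at 0.653, 0.505 and 0.627 CPM with AZD4573. The lowest AZD4573 library lay within the range of the DMSO libraries, although the groups did not overlap on the TMM scale. Its log2 fold change of 0.52 (standard error 0.323, 95% interval -0.18 to 1.22) did not pass the test (adjusted p = 0.161 from edgeR), and it was -0.21 with mitochondrial scaling. Exons of TBC1D5, a gene on the same strand, share 211 bases (1.43%) of the exons of SATB1. TBC1D5 was at 171 CPM with DMSO and 230 CPM with AZD4573 (log2 fold change 0.53, adjusted p = 3.88e-08 from edgeR), so that the few counts of SATB1 are uncertain. The share of them that came from reads of TBC1D5 was not tested.

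TWIST1 encodes a basic helix-loop-helix factor of mesoderm that pairs with E proteins and is not usual in T cells. The gene (ENSG00000122691) is annotated on chromosome 7 from 19020991 to 19117636, a span that includes long transcripts absent from the RefSeq gene, and the share of reads assigned to them was not tested. It had 18, 25 and 14 counts with DMSO (0.235, 0.355 and 0.198 CPM), and 0, 5 and 0 counts with AZD4573, of which 5 counts are 0.0841 CPM. All AZD4573 libraries were below all DMSO libraries. Summed over libraries, 57 counts with DMSO stood against 5 with AZD4573, a ratio of 0.109 per library total. Its exact 95% counting interval of 0.0340 to 0.269 leaves out the spread between libraries. The edgeR log2 fold change of TWIST1 was -3.02 (standard error 0.797, 95% interval -4.74 to -1.30), with an adjusted p of 0.00373 from edgeR. Of the genes tested, 0.667% had a lower value. TWIST1 passed the filter on low counts only through the DMSO libraries. With so few AZD4573 counts it could be tested only as lower, so the adjusted p lends that direction no weight. Scaled to the mitochondrial mRNAs TWIST1 fell by 3.74 (adjusted p = 0.000258 from edgeR). Without AZD4573 replicate 2, the library with the 5 counts, the AZD4573 group was at 0 and the fitted value fell to -7.11, which depends on the prior count and is no bound.

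**Figure D3:**
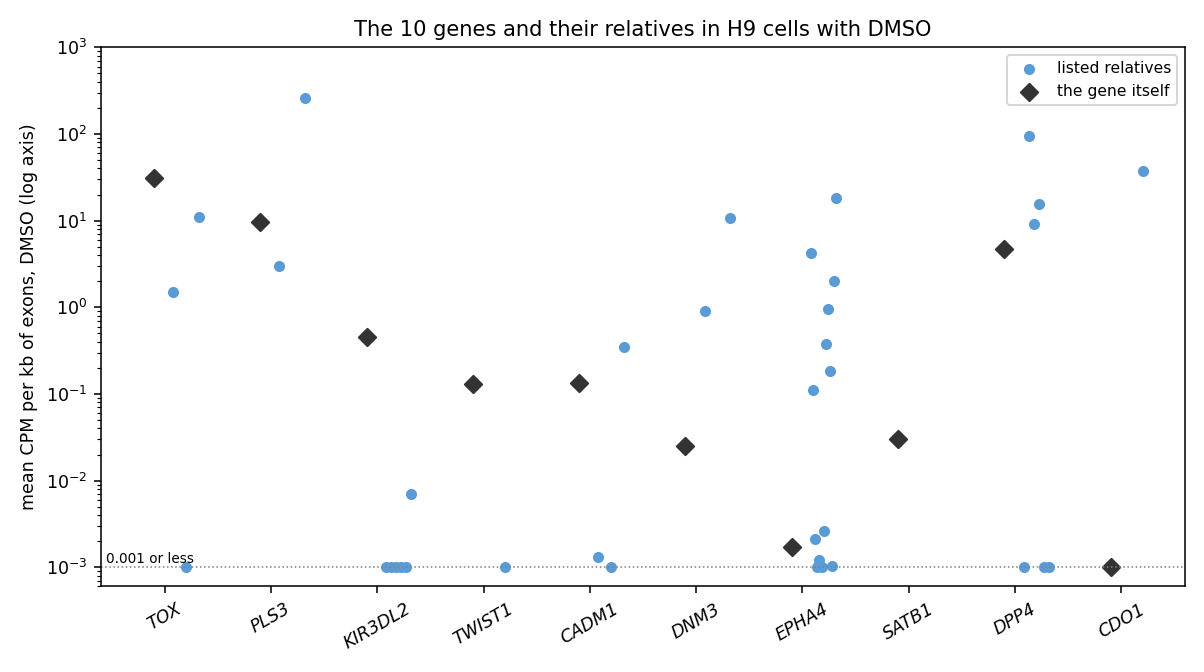
Mean level with DMSO in CPM per kilobase of exons (log axis) of each of the 10 genes (diamonds) and its listed relatives (circles), with values of 0.001 or less drawn at 0.001 and no relative drawn for SATB1. TOX stands above its 3 relatives, KIR3DL2 above its 6 and TWIST1 above TWIST2, whereas PLS3, DPP4, DNM3, CADM1, EPHA4 and CDO1 have at least 1 relative at a higher level.

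PLS3 encodes plastin 3, an actin-bundling protein of solid tissues, while leukocytes use its relative LCP1 (plastin 2). The gene (ENSG00000102024) lies on chromosome X from 115561174 to 115650861. It was at 39.6, 40.6 and 38.0 CPM with DMSO and at 37.0, 37.0 and 40.2 CPM with AZD4573, so that the groups overlapped. A log2 fold change of 0.05 (standard error 0.0569, 95% interval -0.07 to 0.18) did not pass the test (adjusted p = 0.400 from edgeR). The interval holds no change past 1.5-fold. The value was -0.0502 with library size alone and -0.69 (adjusted p = 1.77e-07 from edgeR) with mitochondrial scaling.

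DNM3 encodes dynamin 3, a GTPase that pinches off membrane vesicles and is best known from neurons. The gene (ENSG00000197959) lies on chromosome 1 from 171817887 to 172418466 and, at 600580 bases, was the longest of the 10. It was at 0.313, 0.398 and 0.184 CPM with DMSO and at 0.729, 0.505 and 0.658 CPM with AZD4573. The groups did not overlap. Summed over libraries, 65 counts stood against 110, and the fitted rise was 2.26-fold, or 1.17 on the log2 scale (standard error 0.355), with an adjusted p of 0.00876 from edgeR. With mitochondrial scaling it was 0.44 (adjusted p = 0.282 from edgeR).

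CDO1 encodes cysteine dioxygenase, which oxidises cysteine on the way to taurine. The gene (ENSG00000129596, chromosome 5, 115804733 to 115816659) had 0 counts in 5 libraries and 2 counts in AZD4573 replicate 2. No level was detectable at this depth in either group, and no fold is given.

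The error of these values followed the depth of the genes. Over all genes tested, the median standard error of the log2 fold change was 0.0625 at 10 to 100 CPM with DMSO and 0.422 at 0.1 to 0.5 CPM. PLS3 and DPP4 belong to the former range and SATB1, DNM3 and TWIST1 to the latter, where a change must be larger to pass the test. The share of calls differed too. At 0.1 to 0.5 CPM 35.6% of the genes tested were higher and 7.96% were lower, against 28.8% and 56.5% at 10 to 100 CPM. Gene length was another trait on which the members differed. TOX, CADM1 and DNM3 span more than 300 kb of the genome and all passed the test in the higher direction. Of the 411 protein-coding genes of that span, these included, 54.5% were higher and 18.5% were lower (median log2 fold change 0.38). Of the 4460 that span 30 to 100 kb, 30.9% were higher and 49.7% were lower (median -0.18). DPP4, PLS3 and, by its annotated span of 96646 bases, TWIST1 are among these.

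The relatives of the 10 genes were examined from a list of 38 genes, of which 19 passed the filter on low counts. Among them 9 were higher (37.3% of all genes tested), 3 were lower (37.4% of all) and 7 did not pass, with a median log2 fold change of 0.18 against 0.03 over all genes tested. LCP1, the leukocyte plastin, was at 1323 CPM with DMSO and 2007 CPM with AZD4573 (log2 fold change 0.71, adjusted p = 5.73e-08 from edgeR), while PLS1 was at 15.9 and 15.4 CPM and did not pass. Of the other TOX factors, TOX4 fell by 1.03 on the log2 scale (from 77.8 to 35.6 CPM), TOX2 rose by 0.66 (from 4.85 to 7.14 CPM) and TOX3 was at 0 in each library. Among the dynamins, DNM1 rose by 1.06 (from 9.78 to 19.0 CPM) and DNM2 by 0.25 (from 190 to 210 CPM). Among peptidases related to DPP4, DPP7 rose by 0.60 (from 311 to 439 CPM) and DPP8 by 0.52 (from 92.8 to 124 CPM), while DPP9 (175 and 153 CPM) did not pass. ADO, the other thiol dioxygenase, was at 140 and 124 CPM and did not pass. With mitochondrial scaling, DNM1 alone was higher (12.1% of all genes tested) and 12 relatives were lower (67.2% of all), TOX4 among them. Of the relatives that rose with TMM, DNM2 (-0.49), DPP7 (-0.13) and DPP8 (-0.22) were then lower. LCP1 (-0.04) and TOX2 (-0.08) did not pass.

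Although EPHA4 was not detected, 6 of the 13 other Eph receptors on the list reached 1 CPM with DMSO. EPHB6, which lacks kinase activity, was the highest at 98.4 CPM with DMSO and 104 CPM with AZD4573 (log2 fold change 0.18, adjusted p = 0.00253 from edgeR). EPHA1 fell by 0.89 on the log2 scale (from 19.8 to 9.89 CPM) and EPHB2 fell by 0.71 (2.28 CPM with DMSO), while EPHB4 rose by 0.71 (19.7 CPM with AZD4573). EPHA10 (3.11 and 3.26 CPM) and EPHB1 (5.60 and 4.64 CPM) did not pass the test. Scaled to the mitochondrial mRNAs, EPHB6 was lower (-0.56) and EPHB4 did not pass (-0.03).

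A list of 29 ligands, partners and linked genes of the members was examined as well, and 23 of them were tested. Each of the 23 passed the test, 12 of them higher (37.3% of all genes tested) and 11 lower (37.4% of all), with a median log2 fold change of 0.13. PTPRC (CD45), a phosphatase bound by CD26, was the highest at 429 CPM with DMSO and rose by 1.08 on the log2 scale to 842 CPM. CXCR4, whose ligand CD26 cleaves, rose by 0.67 (from 322 to 477 CPM), and the SATB1 partners HDAC1 and CTBP1 rose by 0.47 (from 302 to 388 CPM) and 0.28 (from 255 to 287 CPM). CRTAM, the receptor that binds CADM1, rose by 2.37 (0.331 CPM with DMSO). The largest falls were those of ephrins, ligands of the Eph receptors. EFNA4 had 195 to 211 counts in a DMSO library and 2 to 6 in an AZD4573 library (log2 fold change -5.22, adjusted p = 1.32e-09 from edgeR), and EFNB1 fell by 2.86 (from 21.9 to 2.80 CPM, adjusted p = 2.53e-11 from edgeR). Among genes at 1 CPM or more in either group, the largest rise was that of IL13, a T helper 2 cytokine (log2 fold change 5.02, adjusted p = 8.21e-07 from edgeR). It had 0 to 4 counts in a DMSO library and 57 to 62 in an AZD4573 library. IL13 thus passed the filter on low counts only through the AZD4573 libraries, and EFNA4 only through the DMSO libraries. Of the 699 genes tested under 0.1 CPM with DMSO, 96.1% were higher and 0% were lower. PTPRC, CRTAM and IL13 were also higher, and the ephrins lower, with mitochondrial scaling, whereas CXCR4 did not pass (-0.07) and HDAC1 (-0.27) and CTBP1 (-0.46) were lower.

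Beyond these 10 genes, 47 other genes linked to Sézary syndrome and CTCL were listed from general knowledge, of which 33 were tested. Of the 28 that are as a rule raised in malignant T cells, 17 were tested, 9 were higher (37.3% of all genes tested), 5 were lower (37.4% of all) and 3 did not pass (median log2 fold change 0.39). IL32, a cytokine gene, was the highest at 399 CPM with DMSO and rose by 0.42 on the log2 scale to 498 CPM. CCR4, the chemokine receptor that guides T cells to skin, fell by 0.26 (from 243 to 188 CPM), and CD164 (227 and 209 CPM) did not pass. The largest falls were those of the costimulatory receptor ICOS, which fell by 0.58 (from 39.0 to 24.2 CPM), and of TNFSF4, which fell by 0.52 (from 1.66 to 1.08 CPM). Among genes at 1 CPM or more in either group, the largest rises were those of GNLY and GATA3. GNLY, the cytotoxic protein granulysin, rose by 1.03 (from 0.930 to 1.77 CPM). GATA3, the T helper 2 factor, rose by 0.73 (from 224 to 345 CPM). GATA3 was at -0.01 when scaled to the mitochondrial mRNAs (adjusted p = 0.821 from edgeR). The paper, by contrast, reported fewer GATA-3 transcripts with AZD4573 by qRT-PCR in cell lines, H9 among them, and in primary specimens. The source of this difference was not tested. With mitochondrial scaling none of the 17 was higher and 11 were lower, where 12.1% of all genes tested were higher and 67.2% were lower. IL32 was then lower (-0.31) and GNLY did not pass (0.29).

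Of the 19 genes that are as a rule lowered, deleted or mutated, 16 were tested, 8 were lower (37.4% of all genes tested), 5 were higher (37.3% of all) and 3 did not pass (median log2 fold change -0.11). CDKN2A, CDKN2B and SOCS1, which are lost in many CTCLs, were at 0 in each library. HNRNPK, an RNA-binding protein, was the highest at 797 CPM with DMSO and rose by 0.17 to 835 CPM, while TCF3 fell by 0.34 (from 382 to 280 CPM), ARID1A fell by 0.33 (from 360 to 267 CPM) and TNFAIP3 fell by 0.16 (from 201 to 166 CPM). Among those at 1 CPM or more, the largest fall was that of TGFBR2, a TGF-β receptor that fell by 1.75 (from 15.2 to 4.24 CPM), and the largest rise was that of BCL11B, a T-cell identity factor (by 0.59, from 98.5 to 138 CPM). With mitochondrial scaling 13 of the 16 were lower (67.2% of all genes tested) and none was higher (12.1% of all). HNRNPK (-0.57) and BCL11B (-0.15), which rose with TMM, were among those lower.

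**Figure D4:**
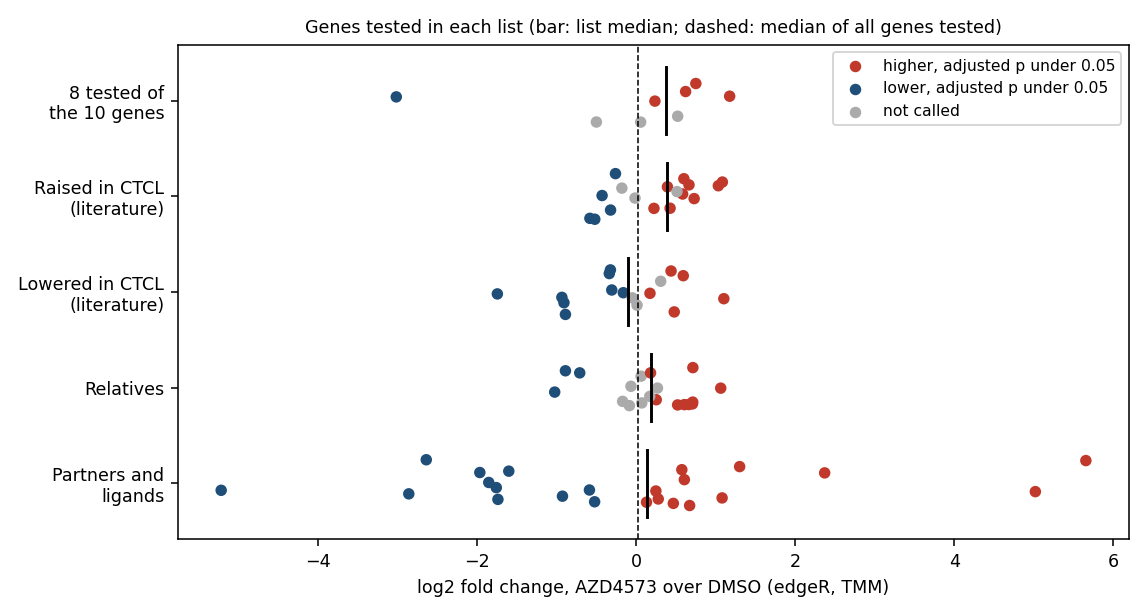
Log2 fold change of AZD4573 over DMSO with TMM scaling for each gene tested of 5 lists, with vertical positions spread only for legibility. Red and blue points passed edgeR's test at an adjusted p under 0.05, grey points did not, bars are list medians (0.38, 0.39, -0.11, 0.18 and 0.13 from top to bottom) and the dashed line is the median of all genes tested (0.03).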

How the data were processed

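The data were bulk RNA-seq of 6 H9 libraries, 3 with DMSO and 3 with AZD4573, grouped by their labels. The authors trimmed reads with cutadapt 2.3, aligned them to GRCh38 with STAR 2.7.8a and deposited expected counts per gene from RSEM 1.3.3, in whole numbers and not normalized. Poly(A) selection is given by the labels, and rRNA depletion by the supplemental methods. Total counts ranged from 52101868 to 76571157, and 5 reporter rows with 0 counts were left out.

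Groups were compared in R 4.3.3 with edgeR 4.0.16 (low-count filter with minimum count 10, TMM, quasi-likelihood test, Benjamini-Hochberg adjustment over 17678 genes, no replicate block). Standard errors are the log2 fold change over the root of the F statistic, and intervals use the test's degrees of freedom. Exons and positions came from GENCODE release 44 (61369 genes matched) and promoter windows from RefSeq, which held 12 windows for 7 of the genes. Reads of antisense or overlapping genes cannot be told apart, as no strand setting is stated.

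The members and lists were chosen with earlier results of these data known. Of each list, the 4 highest genes with DMSO, the 2 largest falls and the 2 largest rises (called, at least 1 CPM) are named, with every relative at 1 CPM or more and genes overlapping a member's exons or starting within 5000 bases on the other strand. Some genes that met this rule are not reported here. Alternatives were other scalings (RLE, library size, mitochondrial mRNAs), other filters, each library left out, DESeq2 1.42.0, a replicate block and a fold of 1.5. The procedure was tested on simulated data, and no library was a copy of another.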

Additional observations from a re-analysis of the deposited data

How the results depend on the processing

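The scaling of the libraries changed the calls most. Scaled to the mitochondrial mRNAs, 0 of the 8 genes were higher and 4 lower, TOX (-0.51), PLS3 (-0.69), CADM1 (-0.12) and SATB1 (-0.21) turned negative, and 2144 of all genes tested were higher and 11878 lower in place of 6596 and 6606. By this scaling 24 of the other Sézary and CTCL genes were lower and 0 higher in place of 13 and 14, and 12 relatives were lower and 1 higher in place of 3 and 9. With library size only, 2 of the 8 genes were lower (TWIST1 and KIR3DL2), PLS3 was at -0.0502, and 5 relatives were lower. With at least 10 counts required in every library 0 of the genes were lower, since TWIST1 was no longer tested. With a fold of at least 1.5, 4191 genes were lower and 4012 higher, and 4 and 7 of the other Sézary and CTCL genes. At a threshold of 0.1 CPM, 8 genes were expressed with DMSO in place of 4.

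With each library left out, the calls of the 10 genes numbered 1 lower and 4 higher each time, and the log2 fold changes ranged from 0.72 to 0.77 for DPP4, 0.19 to 0.25 for TOX, 0.54 to 0.74 for CADM1, 0.91 to 1.41 for DNM3 and -7.11 to -2.42 for TWIST1. Over all alternatives, those of scaling included, the adjusted p from edgeR or DESeq2 ranged from 1.42e-43 to 0.907 for DPP4, 4.11e-07 to 0.0151 for TOX, 0.00256 to 0.578 for CADM1, 0.00251 to 0.282 for DNM3, 0.000157 to 0.0223 for TWIST1, 0.000403 to 0.257 for KIR3DL2, 0.0897 to 0.561 for SATB1 and 1.77e-07 to 0.971 for PLS3. The lowest values for TOX and PLS3 came from mitochondrial scaling, where both genes were lower (-0.51 and -0.69) and not higher as with TMM.

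Replicate numbers did not pair the libraries (correlations of same-numbered deviations of -0.02, 0.04 and 0.03). A replicate block left 1 of the genes lower and 4 higher. RLE factors and DESeq2 changed none of these calls. Depth limits the 4 tested genes under 1 CPM, which rest on 57 to 186 counts per group with DMSO.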

Other observations

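The ephrins and T helper 2 cytokines on the list of ligands and partners moved by more than the 10 genes themselves did, TWIST1 apart. They are described here after their values were seen. Of the 8 ephrin genes listed, 5 were tested and all were lower with AZD4573 under TMM, RLE, library size and mitochondrial scaling, where 37.4% of all genes tested were lower with TMM and 67.2% with mitochondrial scaling. Besides EFNA4 and EFNB1, EFNA3 went from 121, 136 and 125 counts with DMSO to 26, 12 and 7 with AZD4573 (log2 fold change -2.64), EFNA1 from 84, 70 and 73 to 16, 13 and 14 (-1.97) and EFNB2 from 403, 354 and 364 to 74, 88 and 89 (-1.74). Their adjusted p from edgeR was 1.55e-05, 2.23e-05 and 2.63e-08. EFNA4 and EFNA3 passed the filter on low counts only through the DMSO libraries, which favoured a fall.

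The counts of IL4, IL5 and IL13, cytokine genes of the T helper 2 locus, did not all move the same way. IL5 went from 1, 0 and 0 counts with DMSO to 11, 22 and 21 with AZD4573 (log2 fold change 5.65, adjusted p = 1.93e-05 from edgeR), beside the rise of IL13. Both were under 0.1 CPM with DMSO and passed the filter on low counts only through the AZD4573 libraries. Of the genes tested at that level, 96.1% were higher and 0% were lower. The filter thus all but set their direction, and their adjusted p lend it no weight. Their neighbour IL4 went from 41, 27 and 38 counts to 10, 6 and 7 (log2 fold change -1.76, adjusted p = 0.00142 from edgeR). IL4 in turn passed the filter only through the DMSO libraries, which favoured a fall. Whether these genes differ in direction was therefore not tested. All 3 directions were the same with mitochondrial scaling, at 5.01, 4.30 and -2.49 for IL5, IL13 and IL4.

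MPO, listed as a myeloid marker, had 0 counts in each DMSO library and 82, 59 and 41 counts with AZD4573. The other myeloid markers reached at most 0.235 CPM with AZD4573, the level of CD14.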
